A study of Mus musculus with 12 samples.

Results

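The miRNAs described here are 7 mature sequences from the imprinted Dlk1-Dio3 domain on mouse chromosome 12. They are mmu-miR-127-3p, mmu-miR-541-5p, mmu-miR-434-5p, mmu-miR-434-3p, mmu-miR-379-5p, mmu-miR-411-5p and mmu-miR-382-5p (the species prefix is left out from here on), and they were taken by name from the 1915 miRNA names of the deposited table. The RNA was total testis RNA of C57BL/6 males, 4 months old, from which the 17 to 40 nt fraction was sequenced. Inputs of 10, 50 or 100 ng were used, either untreated (before oxidation) or treated with sodium periodate (NaIO4, after oxidation). Each of these 6 groups has 2 technical replicates, 12 libraries in all, and strain, sex, age and tissue are common to every group. The amount of added spike-in RNA followed the input. The replicates are technical and the labels do not give the number of mice, so every p-value measures the spread between libraries and not between animals.

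The Dlk1-Dio3 domain carries one of the largest groups of miRNAs in mammals. Its protein-coding genes Dlk1, Rtl1 and Dio3 are expressed from the paternal chromosome, and its noncoding RNAs (Meg3, the transcript antisense to Rtl1, Rian and Mirg), from which the miRNAs are cut, from the maternal one. The miRNAs of the domain are best known from placenta, embryo and brain. Periodate attacks the vicinal diol at an unmodified RNA 3' end, which can then no longer be ligated to an adapter. The 2'-O-methyl group at the end of piRNAs protects them from this reaction, and the study asks which small RNAs carry that mark at low RNA input.

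The 7 mature sequences are given with the seed (bases 2 to 8, the part that pairs with targets) in capitals, because their seeds and positions define which of them are related. Sequences and coordinates are from RefSeq on GRCm38.p6, all on the plus strand, and all 7 names matched.
miR-127-3p: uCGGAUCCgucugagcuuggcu
miR-434-5p: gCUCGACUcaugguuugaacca
miR-434-3p: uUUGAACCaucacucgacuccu
miR-379-5p: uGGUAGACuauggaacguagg
miR-411-5p: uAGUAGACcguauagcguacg
miR-382-5p: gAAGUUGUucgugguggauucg
miR-541-5p: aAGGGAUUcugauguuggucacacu
No 2 of the 7 share a seed. The closest pair is miR-379-5p and miR-411-5p, whose hairpins lie next to each other. They differ at 7 of 21 aligned bases, and a single one of these lies in the seed (G2A, counted from 1 at the 5' end, with the base of miR-379-5p first). Outside the 7, the seed of miR-379-5p recurs in miR-1193-5p of the same domain, and that of miR-411-5p in miR-7229-5p. Every member differed from its nearest other annotated name by at least 7 bases when aligned at the 5' end. Lengths ran from 21 bases in miR-379-5p and miR-411-5p to 25 bases in miR-541-5p, against a median of 22 over the 123 tested miRNAs with a RefSeq entry. A 5' U, the first base favoured by Argonaute proteins, was present in 4 of the 7 (57.1%) and in 60.2% of these 123.

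By position the members fall into 3 places in the domain. The hairpins of miR-127 (chr12:109592846-109592915) and miR-434 (chr12:109594506-109594599) lie on the strand opposite to Rtl1, a retrotransposon-derived gene needed for placental vessels, within its coding exon in GENCODE M21. Those of miR-379 (chr12:109709060-109709125) and miR-411 (chr12:109710175-109710256) lie 116.2 and 117.3 kb further on, outside the annotated non-miRNA genes. Those of miR-382 (chr12:109733771-109733846) and miR-541 (chr12:109742409-109742498) lie within the noncoding gene Mirg. Being transcribed across Rtl1, the miR-127 and miR-434 arms have fully complementary stretches in the Rtl1 coding sequence, which are printed 5' to 3' from the GENCODE transcript with the bases opposite the seed in capitals.
Rtl1 opposite miR-127-3p, chr12:109592888-109592909, minus strand: agccaagctcagacGGATCCGa
Rtl1 opposite miR-434-5p, chr12:109594528-109594549, minus strand: tggttcaaaccatgAGTCGAGc
Rtl1 opposite miR-434-3p, chr12:109594565-109594586, minus strand: aggagtcgagtgatGGTTCAAa
Of the 113 mature names of the domain, 11 had such a full-length match in a GENCODE transcript, all of them in Rtl1, and no match was found for the other 4 members.

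Depth was similar across libraries. The deposited values are read numbers scaled to library size (RPM), and the step that 1 read makes gave denominators of 1924201 to 3347735 reads per library. Of these, 326701 to 454158 were miRNA reads in the untreated libraries, and 625 to 937 in the oxidized ones. Of the testis markers, miR-741-3p of the X-linked germ cell cluster stood at 28164 ± 5817 RPM before oxidation (SD, n = 6), and all 6 germ cell markers were detected. Markers of somatic cells were present too. For smooth muscle, miR-143-3p stood at 11545.5 ± 2037 RPM and miR-145a-5p at 7.99 ± 5.65 RPM. For Sertoli cells, miR-202-5p stood at 137 ± 56.2 RPM and miR-202-3p at 21.1 ± 16.3 RPM. The brain markers miR-124-3p and miR-9-5p stood at 2.82 ± 1.11 and 3.79 ± 1.60 RPM, the liver marker miR-122-5p at 1.82 ± 2.14 RPM and the red blood cell marker miR-451a at 0.436 ± 0.618 RPM.

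Before oxidation miR-127-3p was the leading miRNA of the domain. Its abundance was 97.9 and 88.6 RPM in the libraries from 10 ng, 136 and 137 RPM at 50 ng and 134 and 134 RPM at 100 ng, from 2166 reads in all. The 4 libraries at 50 and 100 ng lay close together, and both libraries at 10 ng lay below them without overlap. With a mean of 121 ± 22.0 RPM (n = 6) it ranked 61st among all miRNA names. It held 0.0942% ± 0.0128 of miRNA reads and 54.9% ± 3.61 of the reads of the domain.

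miR-541-5p, from the far end of the cluster, was the next most abundant. Its values were 41.8 and 66.4 RPM at 10 ng, 50.4 and 55.3 RPM at 50 ng and 45.5 and 53.4 RPM at 100 ng (52.1 ± 8.60 RPM, n = 6, 925 reads, rank 82). Both the lowest and the highest of the 6 libraries were made from 10 ng, so the inputs overlapped. The number of miR-541-5p reads per miR-127-3p read was 0.427 and 0.75 at 10 ng and 0.339 to 0.403 in the other 4 libraries.

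The arms of miR-434 were less abundant. miR-434-5p had 6.79 and 4.36 RPM at 10 ng, 19.0 and 11.9 RPM at 50 ng and 14.5 and 14.3 RPM at 100 ng (11.8 ± 5.41 RPM, n = 6, 210 reads). Both libraries at 10 ng lay below the other 4. Its partner miR-434-3p had 2.86 and 4.72 RPM at 10 ng, 0.388 and 1.79 RPM at 50 ng and 3.04 and 1.52 RPM at 100 ng (2.39 ± 1.5 RPM, 42 reads), with the inputs overlapping.

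The miR-379 and miR-411 pair was low, as was miR-382. miR-379-5p, the first miRNA of the large downstream cluster, had 7.86 and 2.90 RPM at 10 ng, 12.02 and 9.86 RPM at 50 ng and 11.8 and 14.0 RPM at 100 ng (9.74 ± 3.95 RPM, n = 6, 175 reads). miR-411-5p had 0.714 and 0.726 RPM at 10 ng, 1.94 and 2.69 RPM at 50 ng and 1.01 and 1.83 RPM at 100 ng (1.48 ± 0.796 RPM, 27 reads). miR-382-5p gave no read in either library at 10 ng and 0.388, 1.49, 0.674 and 0.305 RPM in the 2 libraries at 50 ng and the 2 at 100 ng, from 9 reads in all. At this depth a count of 3 reads, taken as the floor of detection, corresponded to between 0.896 and 1.16 RPM per untreated library, so miR-382-5p lay below the floor in every library but the second from 50 ng (5 reads). Both values of miR-411-5p at 10 ng (2 reads each) and that of miR-434-3p in the first library from 50 ng (1 read) also lay below it, and miR-411-5p in the first library from 100 ng (3 reads) lay at it.

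**Figure D1:**
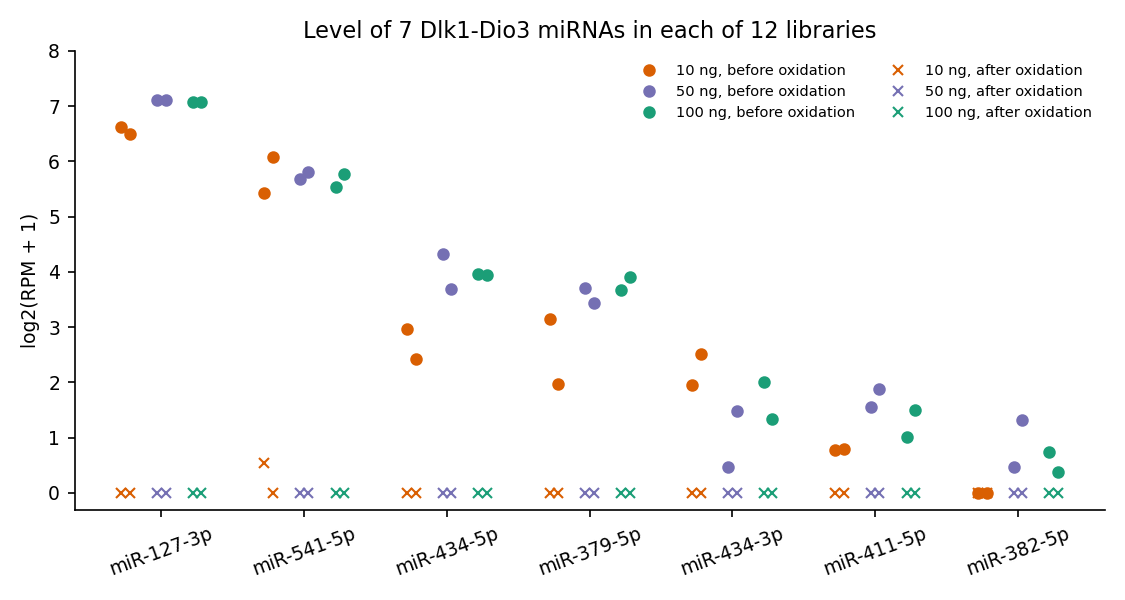
Level of each of the 7 miRNAs as log2(RPM + 1) (y axis) in the 2 libraries of each group, with colour for the RNA input, filled circles before oxidation and crosses after it. The values after oxidation lie at 0 except for miR-541-5p in the first library from 10 ng. Before oxidation both libraries from 10 ng lie lowest for miR-127-3p, miR-434-5p and miR-379-5p. The same holds, from few reads, for miR-411-5p and miR-382-5p.

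In the order of levels, only the first steps were larger than the spread. The ranges over 6 libraries did not overlap between miR-127-3p and miR-541-5p or between miR-541-5p and miR-434-5p. Each of the following neighbours overlapped, although miR-434-5p exceeded miR-379-5p in 5 of 6 libraries, miR-379-5p exceeded miR-434-3p in 5 of 6 and miR-411-5p exceeded miR-382-5p in 6 of 6. miR-434-3p exceeded miR-411-5p in 3 of 6. Ligation efficiency differs between small RNAs, so an order of read numbers is not an order of molecules. For miR-411-5p the SD over 6 libraries was 0.796 RPM, where counting the reads alone gives 0.721 RPM. It was 0.559 against 0.416 RPM for miR-382-5p, 1.5 against 0.899 RPM for miR-434-3p and 3.95 against 1.84 RPM for miR-379-5p. For miR-127-3p it was 22.0 RPM, where the reads alone give 6.46 RPM. It was 8.60 against 4.22 RPM for miR-541-5p and 5.41 against 2.01 RPM for miR-434-5p. All these SDs over 6 libraries pool the RNA inputs, so they include differences between inputs as well as between replicates. At 10, 50 and 100 ng (n = 2 each) the SD of miR-127-3p was 6.57, 0.436 and 0.264 RPM. That of miR-434-5p was 1.72, 4.99 and 0.121 RPM. An excess of the pooled SD over counting is therefore not a measure of replicate spread alone.

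The rest of the domain gave few reads. RefSeq places 113 mature names between Dlk1 and Dio3, all of which have a row, and 29 of them had a read in at least 1 library before oxidation, 10 of these in a single library. Over all 12 libraries 30 of the 113 names had a read, a share close to that of the whole table (496 of 1915 names). The 7 members held 3554 of the 3924 reads of the domain, with a mean share per library of 90.7% ± 2.19 (n = 6). The members were chosen with earlier results of these data known, so this share may partly follow from their choice. Among the other names miR-409-5p, whose hairpin follows that of miR-541, was by far the highest at 14.0 ± 4.89 RPM, above miR-434-5p. It was followed by miR-411-3p at 1.02 RPM, the other arm of a member, and by miR-370-3p (0.691 RPM), miR-134-5p (0.643 RPM), miR-541-3p (0.604 RPM, again the other arm of a member), miR-300-3p (0.501 RPM) and miR-136-3p (0.482 RPM), the last 5 from at most 12 reads each. The 11 names antisense to Rtl1 together held 61.5% ± 4.45 of the reads of the domain, although 5 of them had any read. The piRNA table held no further sequence of these hairpins: none of its 1018402 sequences lay within a hairpin of the domain on either strand. Whether miRNA reads were kept out of that table when it was made was not tested, so this absence says nothing further about the hairpins.

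**Figure D2:**
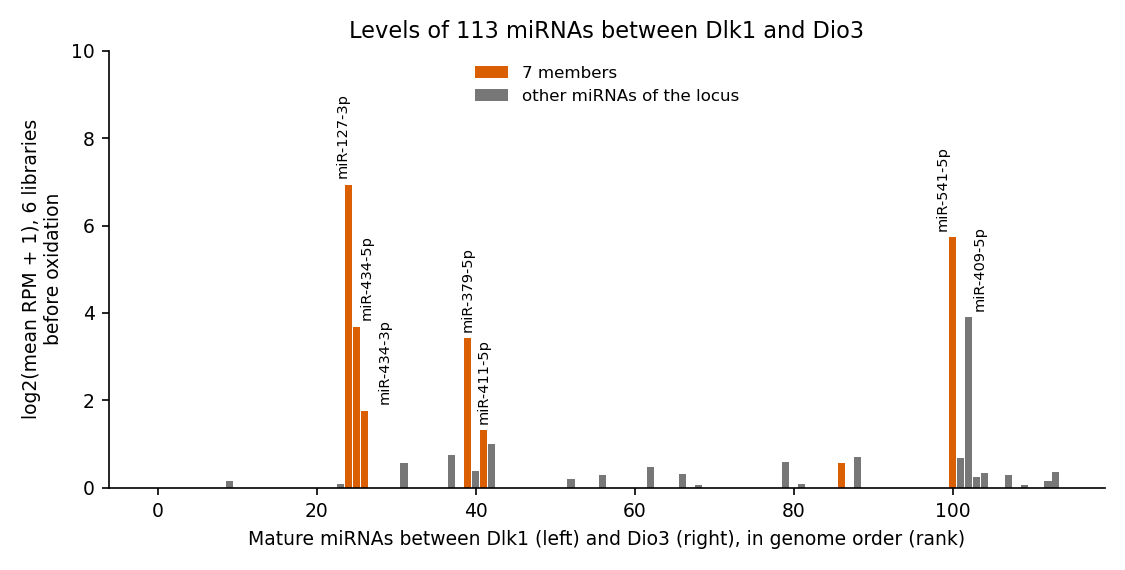
Mean level before oxidation as log2(mean RPM + 1) over 6 libraries (y axis) of the 113 mature miRNAs in genome order from Dlk1 to Dio3 (x axis), with the 7 members in orange and the others in grey. The reads come from the miR-127 and miR-434 hairpins, the miR-379 and miR-411 pair and, at the far end, miR-541 and miR-409, with low bars elsewhere.

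The arms of the hairpins were used unequally. For miR-127, 2166 reads came from the 3p arm and 1 read from the 5p arm. The reverse held for miR-541, with 925 reads from the 5p and 11 from the 3p arm (98.9% ± 0.678 from the 5p arm, n = 6), and for miR-379, with 175 and 6 reads, all 6 of the latter in the second library from 100 ng. miR-382 gave 9 reads from the 5p arm and 0 from the 3p arm. In miR-411 the arms were close, with 27 reads from the 5p and 17 from the 3p arm, or 61.4% from the 5p arm (95% exact binomial interval 45.5 to 75.6), and the 5p arm was higher in 3 of 6 libraries. The 3p arms of miR-379 and miR-411 share their seed and differ at 2 of 22 bases (U10C and U22C, with the base of miR-379-3p first), and the sources used here do not say how a read fitting both was assigned.

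The share of the 5p arm in miR-434 ran from 48% to 98% over the libraries, and that in miR-411, from far fewer reads, from 28.6% to 100%. For miR-434 it was 70.4% (95% exact binomial interval 49.8 to 86.2) and 48% (27.8 to 68.7) in the libraries from 10 ng. It was 98% (89.4 to 99.9) and 87.0% (73.7 to 95.1) at 50 ng, and 82.7% (69.7 to 91.8) and 90.4% (79.0 to 96.8) at 100 ng. Both libraries at 10 ng thus lay below the other 4. The reads behind the shares were 31 of the 5p and 21 of the 3p arm with 10 ng of RNA, 89 and 7 with 50 ng, and 90 and 14 with 100 ng. The intervals cover counting error only, the interval of the first library from 10 ng overlaps those of 3 libraries at higher input, and 2 libraries against 4 were not tested.

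**Figure D3:**
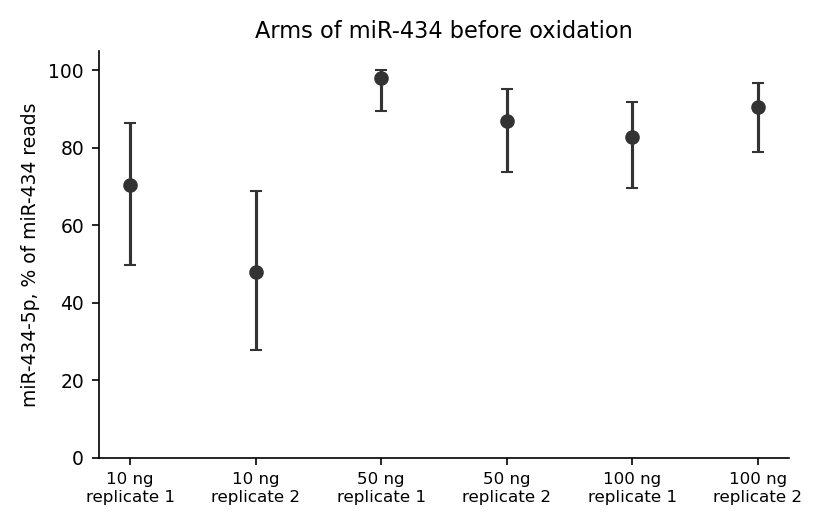
Share of miR-434-5p among the reads of both miR-434 arms (y axis, percent) in each library before oxidation (x axis), with exact binomial 95% intervals. The libraries from 10 ng lie at 70.4% and 48%, and the other 4 between 82.7% and 98%.

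The first test compared 10 with 100 ng before oxidation, which shows whether the measured level depends on the amount of RNA. miR-434-5p was lower at 10 ng (log2 fold change -1.26 ± 0.23 on the RPM + 1 scale, SE, adjusted p = 0.00229). It was lower in both libraries, and it kept the call in all 24 other fits that gave it an adjusted p (0.000903 to 0.0481). miR-127-3p was lower in RPM by a smaller amount (-0.52 ± 0.11, adjusted p = 0.00606), but the call ended with a pseudocount of 0.1 (adjusted p = 0.0643), under centring, both spike-in scalings, as RPM of miRNA reads, by edgeR with TMM and by DESeq2, and scaling to all spike-in reads turned the direction (0.05, adjusted p = 0.703). As RPM of miRNA reads alone, miR-127-3p had 839 and 740 at 10 ng against 990 and 967 at 100 ng. For the fit such values were put on the scale of the mean miRNA total of the untreated libraries (128190 RPM) before 1 was added. On that scale limma gave a log2 difference of -0.31 (adjusted p = 0.615). miR-541-5p did not pass the test (0.10 ± 0.24, 95% interval -0.44 to 0.64, adjusted p = 0.733), and was called higher at 10 ng with scaling to all spike-ins (0.67, adjusted p = 0.0391). Among the germ cell markers, miR-741-3p also had lower values at 10 ng (20428 and 21811 RPM against 33938 and 33834 RPM at 100 ng). So had miR-743a-3p, miR-34c-5p and miR-449a-5p, while miR-871-3p (6981 and 6761 against 2860 and 3100 RPM) and miR-470-5p had higher ones. The smooth muscle markers miR-143-3p and miR-145a-5p and the Sertoli cell marker miR-202-5p had lower values, and miR-202-3p had higher ones. Of these markers, the same limma fit called miR-449a-5p (adjusted p = 9.48e-05) and miR-202-5p (0.0143) lower. It called miR-871-3p (0.00566) and miR-202-3p (4.35e-05) higher. Not called were miR-741-3p and miR-34c-5p (both 0.0566), miR-143-3p (0.0851), miR-470-5p (0.133) and miR-743a-3p (0.171), and miR-145a-5p was not among the tested miRNAs. The part of these markers in the result was not tested. p-values are from limma-trend with Benjamini-Hochberg adjustment over the 141 miRNAs with a mean of at least 5 RPM. Of the members, only the 3 named here (miR-434-5p, miR-127-3p and miR-541-5p) are among them. Of the 141, 34.8% were called lower at 10 ng and 19.1% higher, with a median log2 fold change of -0.49, so 2 members called lower among 3 are not set apart from the rest.

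The other 4 members lie below 5 RPM and were tested in a fit on all 496 miRNAs with a read, 16.1% of which were called lower and 7.06% higher at 10 ng. miR-379-5p, just under the threshold at 4.87 RPM over 12 libraries (miR-434-5p, just above it, had 5.91 RPM), was lower at 10 ng (log2 fold change -1.24 ± 0.34, adjusted p = 0.0267). This call ended with a pseudocount of 0.1, under each rescaling tried, with both count tools, in a fit on the 4 libraries compared (adjusted p = 0.305) and without either library from 50 or from 100 ng (adjusted p of 0.0562 to 0.151). miR-434-3p had a log2 fold change of 0.56 ± 0.38 (adjusted p = 0.293), miR-411-5p of -0.47 ± 0.25 (0.207) and miR-382-5p of -0.56 ± 0.26 (0.157), none of which passed. With other settings miR-382-5p was called lower at 10 ng with a pseudocount of 0.1 (limma adjusted p = 0.0264) and without the first or the second library from 50 ng (0.0134 and 0.0130), and miR-411-5p without the first library from 100 ng (-0.72, adjusted p = 0.0172). In the same contrast miR-409-5p, the most abundant name of the domain outside the 7, was lower (-0.92 ± 0.22, adjusted p = 0.00761) in the fit on 141 miRNAs and lost the call with a pseudocount of 0.1, under centring, scaling to all spike-ins, as RPM of miRNA reads, by edgeR with TMM, by DESeq2 and without the second library from 100 ng before oxidation.

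Between 50 and 100 ng none of the members passed the test. The log2 fold changes were 0.03 ± 0.11 for miR-127-3p (95% interval -0.23 to 0.29), 0.10 ± 0.24 for miR-541-5p (-0.44 to 0.64) and 0.06 ± 0.23 for miR-434-5p (-0.46 to 0.59), with adjusted p from 0.868 to 0.892. Outside the 7, miR-409-5p did not pass in this limma fit either (-0.59 ± 0.22, 95% interval -1.09 to -0.10, adjusted p = 0.173). It gained a call in 1 alternative setting. Of the 141 miRNAs 0 (0%) were called by limma, with 24 at an unadjusted p below 0.05, against 4 lower and 7 higher by edgeR with TMM, 9 and 7 by edgeR without TMM, and 16 and 19 by DESeq2. Without the filter, where 2.62% were called lower and 1.01% higher, miR-379-5p gave -0.22 ± 0.34, miR-434-3p -0.70 ± 0.38, miR-411-5p 0.46 ± 0.25 and miR-382-5p 0.33 ± 0.26, with adjusted p from 0.379 to 0.788. Leaving out a library before oxidation, miR-382-5p was called higher at 50 ng without the first library from 50 ng (0.75, limma adjusted p = 0.0148) and miR-411-5p without the second from 100 ng (0.71, adjusted p = 0.0345). In these fits the libraries after oxidation, nearly all at 0 for the members, enter the shared estimate of the spread. On the 4 libraries compared alone the adjusted p at 10 ng were 0.00131 for miR-127-3p and 0.0164 for miR-434-5p.

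**Figure D4:**
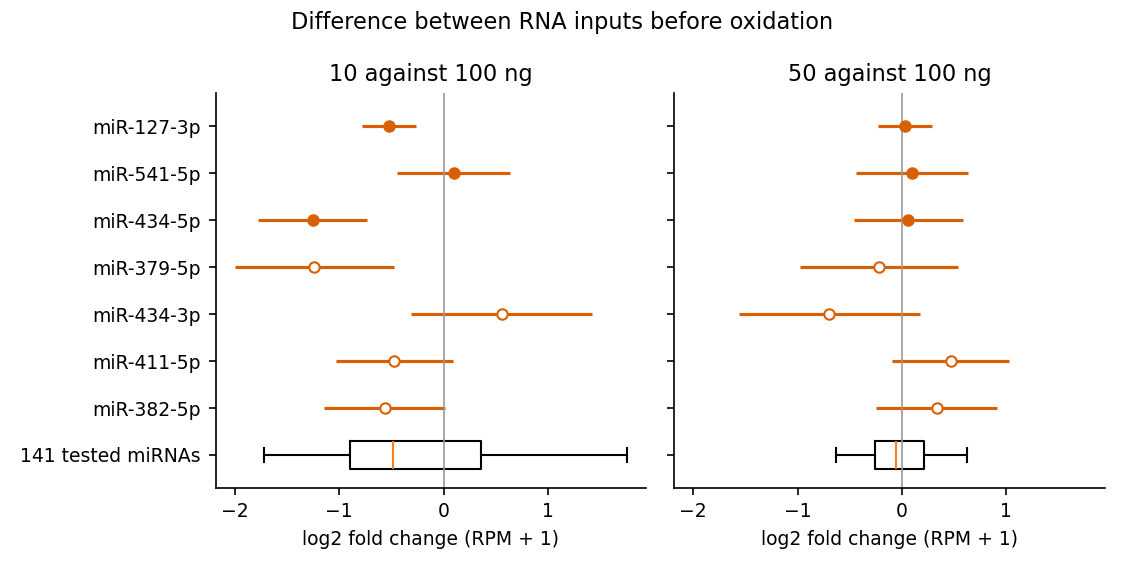
Log2 fold change on the RPM + 1 scale (x axis) of each member at 10 ng (left) and 50 ng (right) against 100 ng before oxidation, with 95% intervals from limma, filled points for the fit on 141 miRNAs and open points for the fit without a filter. The box gives the quartiles and median of the 141 tested miRNAs and its whiskers their 5th to 95th percentiles. miR-434-5p and miR-379-5p lie at about -1.2 at 10 ng and near 0 at 50 ng.

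Some miRNAs outside the domain had a similar course over the inputs. Over the 6 libraries before oxidation, the summed members (158 and 168 RPM with 10 ng, 221 and 220 RPM with 50 ng, 211 and 219 RPM with 100 ng) were most like miR-25-3p (Pearson r = 0.97 on log2 values), miR-192-5p (r = 0.97) and miR-465b-5p (r = 0.97). The median r over the 137 tested miRNAs outside the domain was 0.75. These values are a description, since the libraries share their RNA and input series.

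After oxidation the members left a single read. miR-541-5p had 1 read in the first library from 10 ng (0.462 RPM), and the other 6 members had 0 reads in all 6 libraries. Against a floor of 3 reads over these libraries (0.191 RPM), miR-127-3p was at least 636-fold lower than before oxidation, miR-434-5p at least 61.9-fold, miR-379-5p at least 51.0-fold, miR-434-3p at least 12.5-fold, miR-411-5p at least 7.78-fold and miR-382-5p at least 2.50-fold lower. These bounds follow the level before oxidation and do not order the members by their loss. For miR-541-5p the ratio of pooled RPM was 820 (95% exact interval 147 to 32420). This interval rests on 925 reads against 1 and covers counting error only, since reads without molecular identifiers are not independent molecules. The 113 names of the domain together left 5 reads, of miR-541-5p, miR-409-5p, miR-300-3p, miR-323-3p and miR-494-3p.

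All 3 tested members fell on oxidation averaged over inputs. The log2(RPM + 1) fold change was -6.91 ± 0.07 for miR-127-3p (limma adjusted p = 1.91e-12), -5.62 ± 0.14 for miR-541-5p (8.41e-11) and -3.55 ± 0.13 for miR-434-5p (2.18e-09), and every library after oxidation lay below every library before it. Of the 141 tested miRNAs 97.2% were called lower and 1.42% higher, with a median log2 fold change of -6.02, so the members' calls are the common case. In the fit without a filter, in which 59.7% were called lower and 0.403% higher, miR-379-5p (-3.31), miR-434-3p (-1.63), miR-411-5p (-1.25) and miR-382-5p (-0.49) were called lower as well, with adjusted p of 1.57e-07, 0.000118, 3.12e-05 and 0.0176. On the RPM + 1 scale, a member with 0 reads after oxidation shows only its level before it. These fold changes therefore do not order the members by their loss. The tested members reached 5 RPM over 12 libraries only through their level before oxidation, so these calls do not test the members apart from their choice. The libraries after oxidation, nearly all at 0 for the members, hardly vary and also enter the spread behind these SEs and p-values. The direction turned after centring on library medians and by DESeq2, which remove a loss shared by most miRNAs, for each member but miR-127-3p (miR-434-5p had no adjusted p by DESeq2), and the call of each member was lost by edgeR with TMM. DESeq2 left miR-127-3p at -0.95 (adjusted p = 0.555). The call of miR-382-5p was also lost by edgeR without TMM and without the first library from 100 ng before oxidation (adjusted p = 0.0553).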

How the data were processed

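The authors deposited miRNA and piRNA tables in RPM and a spike-in table of raw read counts, per the file headers and names. Bowtie (no version) and the builds mm10 and hg38 are named in the submitters' processing notes; the sources used here state neither the role of hg38 nor the denominator of the RPM values. The step of 1 read was recovered from the piRNA table, where 100% of values in every library were whole within 0.01 of a read, against 93.24% to 100% of miRNA values. No per-sample column was left unused (0). Means of the 6 groups were estimated by limma-trend (limma version 3.58.1 under R version 4.3.3) from log2(RPM + 1), keeping miRNAs that average 5 RPM or more, and an adjusted p below 0.05 was a call. Count models (edgeR 4.0.16, DESeq2 1.42.0) on rounded reads were alternatives and called, for oxidation, 13 lower and 8 higher by edgeR with TMM, 138 and 2 without TMM, and 8 and 19 by DESeq2. Other alternatives were pseudocounts of 0.1 and 10, no filter or one of 1 RPM, centring, spike-in scaling, a replicate block, only the libraries compared and each library left out. Scaling to methylated spike-ins or to miRNA reads was added after seeing the data. Named miRNAs were the 7 members, their opposite arms, the 5 highest other names of the domain and the 3 most alike miRNAs outside it. The members and lists were chosen with earlier results of these data known. The domain was taken from RefSeq (GRCm38.p6, the assembly of mm10). The fit was also run on simulated counts in which only a part of the miRNAs was lowered. In the data 97.2% of tested miRNAs were called lower on oxidation, so that run does not bear on this contrast.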

Additional observations from a re-analysis of the deposited data

How the results depend on the processing

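Across the alternatives, 567 values of the members and miR-409-5p were computed; 501 kept direction and side of the threshold, 38 lost the call, 8 gained one and 20 turned. For oxidation, 137 miRNAs were called lower and 2 higher. The number lower was 296 without a filter, 60 after centring, 13 by edgeR with TMM and 8 by DESeq2. The number higher was 1 with a pseudocount of 0.1, 69 after centring, 0 with either spike-in scaling, 7 as RPM of miRNA reads, 8 by edgeR with TMM, 19 by DESeq2 and 1 with the replicate block. Leaving out 1 library gave 135 to 138 lower and 1 to 2 higher.

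At 10 against 100 ng, 49 were called lower and 27 higher. The number lower was 26 and 75 with pseudocounts of 0.1 and 10, 80 without a filter, 23 after centring, 23 with all spike-ins, 12 as RPM of miRNA reads and 30 by DESeq2. The number higher was 12 with a pseudocount of 0.1, 43 with all spike-ins, 11 as RPM of miRNA reads and 42 by edgeR with TMM. Leaving out 1 library gave 33 to 58 lower and 19 to 25 higher.

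At 50 against 100 ng, 0 were called. With a pseudocount of 10 it was 21 lower and 19 higher, without a filter 13 and 5, with a filter of 1 RPM 1 lower, with all spike-ins 6 and 13, with methylated spike-ins 10 and 7, by edgeR with TMM 4 and 7, without TMM 9 and 7, by DESeq2 16 and 19, and on the libraries compared alone 22 and 20. Leaving out 1 library gave 0 to 9 lower and 0 to 4 higher.

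The fold change on oxidation turned after centring for miR-541-5p (0.58), miR-434-5p (2.66), miR-409-5p (2.45), miR-434-3p (4.58), miR-411-5p (4.96), miR-379-5p (2.90) and miR-382-5p (5.72). By DESeq2 it turned for miR-541-5p (0.73), miR-409-5p (2.69), miR-434-3p (4.86), miR-411-5p (5.54), miR-379-5p (2.76) and miR-382-5p (7.62). Centring and size factors remove a shared loss by construction (median log2 fold change -6.02 in RPM and 0.19 after centring). A positive value here is not a rise in reads. After oxidation miR-541-5p and miR-409-5p had 1 read each and the other names that turned had 0. For 10 against 100 ng miR-127-3p turned with all spike-ins (0.0493), where the median moved from -0.49 to 0.08. For 50 against 100 ng it turned by DESeq2 (-0.000539). Leaving out 1 library in turn, the value ran from -0.23 to 0.42 for miR-541-5p at 10 ng, from -0.0153 to 0.21 for miR-541-5p at 50 ng, from -0.25 to 0.38 for miR-434-5p at 50 ng and from -0.0910 to 0.75 for miR-382-5p at 50 ng. The causes were not tested.

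Replicate numbers did not pair the libraries: of 15 pairs of groups 2 had a correlation of deviations above 0.1 (-0.197 to 0.175). With the replicate block 46 were lower and 26 higher at 10 ng, and no call of a member changed. Depth limits miR-434-3p, miR-411-5p and miR-382-5p, with 42, 27 and 9 reads.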

Other observations

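The deposited piRNA table gave 0 sequences that matched the host transcripts of the Dlk1-Dio3 miRNAs and no other gene. Exact matches to the GENCODE transcripts numbered 1 for Rtl1, 14 for Meg3 (9 sense and 5 antisense), 4 for Mirg (1 sense and 3 antisense) and 451 for Rian (145 sense and 306 antisense). All of them also matched transcripts of other genes, so 0 were particular to a host transcript. The sequences that matched Rian antisense summed to 507 ± 63.8 RPM in the untreated and 81.0 ± 34.1 RPM in the oxidized libraries (SD, n = 6 each), and those that matched it in sense to 142 ± 13.3 and 43.7 ± 21.8 RPM. No genome sequence was searched.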
